A study of Homo sapiens with 2 samples.

Results

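Short non-coding RNAs of the Cajal body, the vault particle and related complexes were examined in SNK6 cells, an established NK/T-cell lymphoma line cultured with interleukin-2. Cells had received romidepsin plus sildenafil (1 array) or romidepsin alone (1 array) for 72 h. Romidepsin inhibits class I histone deacetylases and was present in both groups, and sildenafil inhibits the cGMP-degrading phosphodiesterase PDE5. Titles abbreviate the drugs, and sildenafil was identified as the added one through the treatment protocol. Doses and an untreated culture were not analysed here. Members were all genes whose symbol in the platform annotation begins with SCARNA, SNAR or VTRNA, together with RMRP, RPPH1 and TERC. This gave 38 of 14884 named genes, on 44 of 53617 probe sets: 23 SCARNA, 8 SNAR and 4 VTRNA genes and the 3 single genes. RN7SK was looked for by the same rule but was not named, and it is not analysed here.

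Small Cajal body-specific RNAs (scaRNAs) base-pair with spliceosomal small nuclear RNAs and direct their modification. Those of the box C/D type guide ribose methylation, those of the box H/ACA type guide pseudouridylation, and some carry both kinds of domain. Most are cut from introns of other transcripts. Vault RNAs are short RNA polymerase III transcripts, some of which associate with the vault, a large cytoplasmic ribonucleoprotein particle. The snaR transcripts are primate-specific polymerase III RNAs that bind the double-stranded RNA binding protein NF90. RMRP and RPPH1 are the RNA subunits of RNase MRP and RNase P, which process ribosomal RNA precursors and transfer RNA precursors, and TERC is the telomerase RNA.

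With 1 array per group nothing could be tested, and no value below carries a replicate error. Differences are given on the log2 scale as combination minus romidepsin, and each describes these arrays and not the drug. A gene was counted as higher or lower when the signals differed by at least 1.5-fold (0.585 on the log2 scale). In RNA from whole cultures, fewer cells with a transcript and less of it per cell cannot be told apart. Each probe set binds with its own strength, so signals of different genes are not compared as amounts. The deposited signals ranged between 0.79 and 12.97 on the combination array and between 0.93 and 13.05 on the romidepsin array, with medians of 3.92 and 3.89, and the median of the whole table was 3.91. The table holds no detection calls. Of 11 NK and T cell markers, 6 were named, and all 6 lay above that median on both arrays, among them NCAM1, which encodes CD56 (6.54 with sildenafil and 6.63 without). Of 11 markers of other cells 8 were named, and 4 of them (PAX5, CSF1R, KRT8 and KRT18) lay above it on both arrays.

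The short RNAs leaned lower on the combination array, and the lowest values were those of a vault RNA and 4 scaRNAs. Of the 38 genes 28 were lower with sildenafil and 10 higher, with a median difference of -0.16 (25 to 31 were lower under 3 other normalizations, and the median was -0.08 with each of the 44 probe sets counted singly). Among all 14884 named genes 48.8% were lower, and the median was 0.00. Those genes were dimmer, with median signals of 4.72 with sildenafil and 4.68 without, against 7.18 and 7.20 for the members. In the brightest decile of mean signal most genes were lower, and SNAR-H at -0.0023 was only the 889th lowest of 1489. With lowess centring on mean signal, which takes out such a trend, 26 of the 38 members were lower and their median was -0.12. At least 1.5-fold lower were 5 members, VTRNA1-1, SCARNA1, SCARNA9L, SCARNA9 and SCARNA23, where 1.05% of all named genes were as low. At least 1.5-fold higher was 1 member, VTRNA1-3, where 1.5% of all named genes were as high. At least 2-fold lower were 2 members, VTRNA1-1 and SCARNA1 (0.0941% of all named genes), and 0 were at least 2-fold higher (0.114%). Such differences were more common among probe sets without a gene name. Of all 53617 probe sets 1939 were at least 1.5-fold lower and 1611 higher, and of the 37519 unnamed ones 1760 and 1361. At least 2-fold lower were 504 of all probe sets and 488 of the unnamed ones. On the lower side, the members nearest to the 1.5-fold threshold were SCARNA23 past it at -0.77 and SCARNA4 short of it at -0.48, and on the higher side VTRNA1-3 past it at 0.65 and SCARNA16 short of it at 0.29. The differences had an SD of 0.38 across the 38 members and of 0.24 across all named genes. Across the members the difference was only weakly related to the mean signal of both arrays (r = 0.15, rho = 0.17) and to the RefSeq length of the RNA (r = -0.12, rho = -0.16; n = 38 genes measured on the same pair of arrays). The size of the difference, whatever its sign, tended to be larger at lower mean signal (r = -0.32, rho = -0.33). The vault RNAs were 88 to 108 nt long, the SNAR genes 119 to 128 nt and the SCARNA genes 125 to 421 nt.

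**Figure D1:**
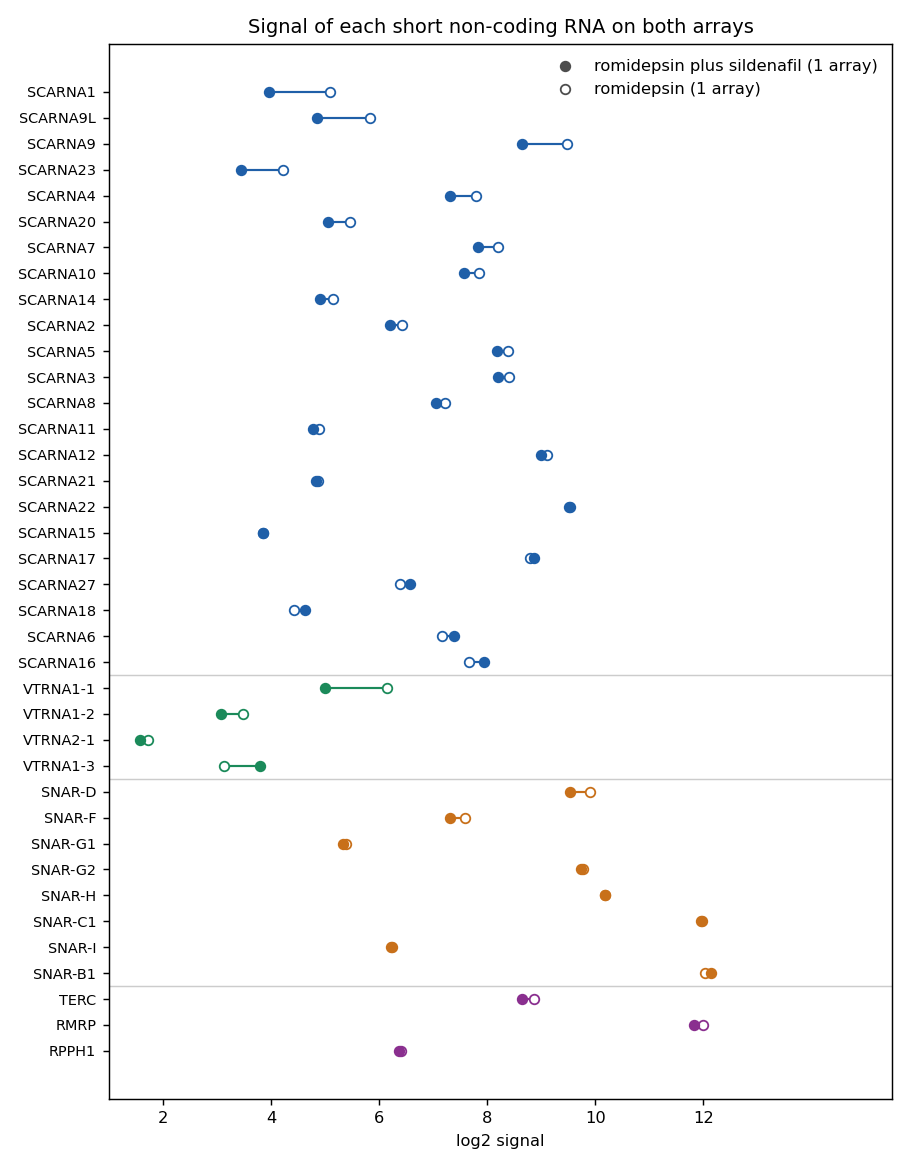
Log2 signal of each of the 38 short non-coding RNAs (1 row per gene, brightest probe set) with romidepsin plus sildenafil (filled circles, 1 array) and with romidepsin (open circles, 1 array), grouped by family. The widest gaps are those of VTRNA1-1 (4.99 with sildenafil, 6.15 without) and SCARNA1 (3.96 with, 5.08 without), and most SNAR genes have nearly the same signal on both arrays.

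The scaRNAs as a family were lower, with a median difference of -0.19 over 23 genes (between -0.22 and -0.14 under 3 other normalizations). Of these 17 were lower and 6 higher, 4 were at least 1.5-fold lower and 0 were at least 1.5-fold higher. Both signals reached the table median in 21 of the 23. The exceptions were SCARNA15, below it on both arrays, and SCARNA23, below it only with sildenafil. Subfamilies by guide type, assigned from textbook knowledge, ordered as follows. The 5 box C/D genes had a median of -0.38, the 12 box H/ACA genes of -0.18 and the 4 genes with both kinds of domain of -0.15, and their ranges overlapped. The box C/D set counts both SCARNA9 and SCARNA9L, whose signals may not be independent.

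Among box C/D scaRNAs, SCARNA9, a guide for ribose methylation of U2 snRNA, had a signal of 8.65 with sildenafil and 9.47 without. Its difference of -0.82 (1.77-fold lower) was the lowest of the 1489 named genes in the brightest decile of mean signal, whose differences had an SD of 0.12. In that decile 0.336% of the genes were at least 1.5-fold lower and 0.0% at least 1.5-fold higher. SCARNA9L, a SCARNA9-like gene on chromosome X, was at 4.84 with sildenafil and 5.83 without (-0.98, 1.98-fold lower), and 0.94% of the genes in its decile of signal were at least 1.5-fold lower. The relatedness of the sequences of SCARNA9 and SCARNA9L means that the 2 signals may not be independent. SCARNA7, which guides methylation of U1 snRNA, was at 7.82 with sildenafil and 8.20 without, a difference of -0.38 that is within 1.5-fold but was the 14th lowest of the 1489 genes in its decile. SCARNA2, another U2 guide, differed by -0.22. SCARNA17 was the one box C/D gene with a higher signal, by 0.08 (8.87 with sildenafil and 8.79 without).

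Among box H/ACA scaRNAs, SCARNA1 had a signal of 3.96 with sildenafil and 5.08 without (-1.13, 2.18-fold lower). This was the lowest difference of the 1488 named genes in the fifth decile of signal and the 10th lowest of all 14884. In the fifth decile 1.34% of the genes were at least 1.5-fold lower. SCARNA23 was at 3.45 with sildenafil and 4.23 without (-0.77, 1.71-fold lower), which ranked 12th lowest of 1489 in a decile where 1.61% of the genes were at least 1.5-fold lower. The SD of the differences in that decile, which holds the median of the table, was 0.29. SCARNA4 (7.31 with sildenafil and 7.80 without) differed by -0.48 and was the 6th lowest of the 1488 genes of its decile, and SCARNA20 (5.06 with and 5.47 without) differed by -0.41. Neither reached 1.5-fold. SCARNA14 was at -0.23, SCARNA3 at -0.19, the U2 guide SCARNA8 at -0.16 and SCARNA11 at -0.11. SCARNA22, encoded within the histone methyltransferase gene NSD2 and known for its high expression in myeloma with a translocation at that locus, was at 9.52 with sildenafil and 9.54 without (-0.03). SCARNA15 differed by 0.00. The H/ACA genes with a higher signal were SCARNA16 (0.29, 7.95 with sildenafil and 7.66 without) and SCARNA18 (0.21). SCARNA16 was among the highest of its decile, at rank 1485 of 1489 counted from the lowest difference.

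The 4 scaRNAs with both kinds of domain were closer together. All 4 lay in deciles 9 and 10 of mean signal, where the differences of named genes spread least (SD 0.15 and 0.12). SCARNA10, which guides both methylation and pseudouridylation of U5 snRNA, was at 7.58 with sildenafil and 7.84 without (-0.26). SCARNA5 differed by -0.20 and SCARNA12 by -0.11, whereas SCARNA6 was higher by 0.21 (7.38 with sildenafil and 7.17 without). SCARNA21 and SCARNA27, which were left without a subfamily, differed by -0.04 and 0.18.

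**Figure D2:**
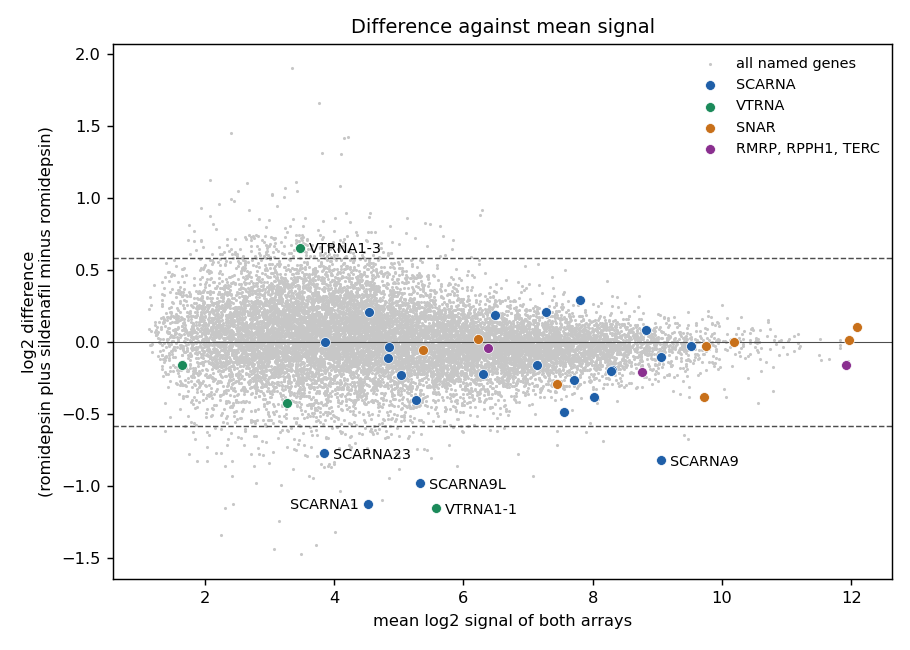
Log2 difference (romidepsin plus sildenafil minus romidepsin) against mean log2 signal of both arrays for all 14884 named genes (grey) and the short non-coding RNAs (coloured by family). Dashed lines mark 1.5-fold, and SCARNA9 at -0.82 stands apart from the narrow spread of grey points at high signal, whereas VTRNA1-3 at 0.65 lies where grey points also cross the line.

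Because scaRNAs are usually released from introns, each was set beside the RefSeq gene whose span encloses it. Of the 23 scaRNAs 22 lay within another gene (all except SCARNA2), 21 of them within a protein-coding gene. The reference table used gives no strand, so whether both genes are read in the same direction was not checked. For 13 scaRNAs a probe set of an enclosing gene was named, which gave 13 pairs with 12 enclosing genes. None of the 12 enclosing genes was 1.5-fold apart (2.55% of all named genes were, in either direction), and their median difference was -0.03. With only 12 genes, a count of 0 is near that share. The scaRNA had a lower difference than its enclosing gene in 8 pairs and a higher one in 5.

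SCARNA9 differed by -0.82, while CEP295, the centriole protein gene around it, differed by -0.06 (8.37 with sildenafil and 8.43 without). SCARNA7 differed by -0.38, against 0.00 for KPNA4, which encodes a nuclear import receptor. SCARNA4 differed by -0.48, against -0.10 for KHDC4. In these 3 pairs the short RNA was lower and the enclosing gene close to equal. The autophagy gene ATG16L1, which encloses both SCARNA5 and SCARNA6, differed by -0.48 (5.64 with sildenafil and 6.12 without). Of the scaRNAs within it, SCARNA5 was lower by 0.20 and SCARNA6 higher by 0.21, so members within 1 gene differed in opposite directions and neither was as low as ATG16L1. SCARNA16 was at 0.29, against -0.10 for SNHG20, a long non-coding RNA gene around it. In the remaining pairs (SCARNA11 with CHD4, SCARNA12 with PHB2, SCARNA14 with TIPIN, SCARNA15 with FSD2, SCARNA18 with TMEM167A, SCARNA21 with CHD3 and SCARNA22 with NSD2) the members lay between -0.23 and 0.21 and the enclosing genes between -0.12 and 0.08. The genes around SCARNA1 (PPP1R8), SCARNA9L (EIF1AX) and SCARNA23 (POLA1) were not named and are not analysed here.

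**Figure D3:**
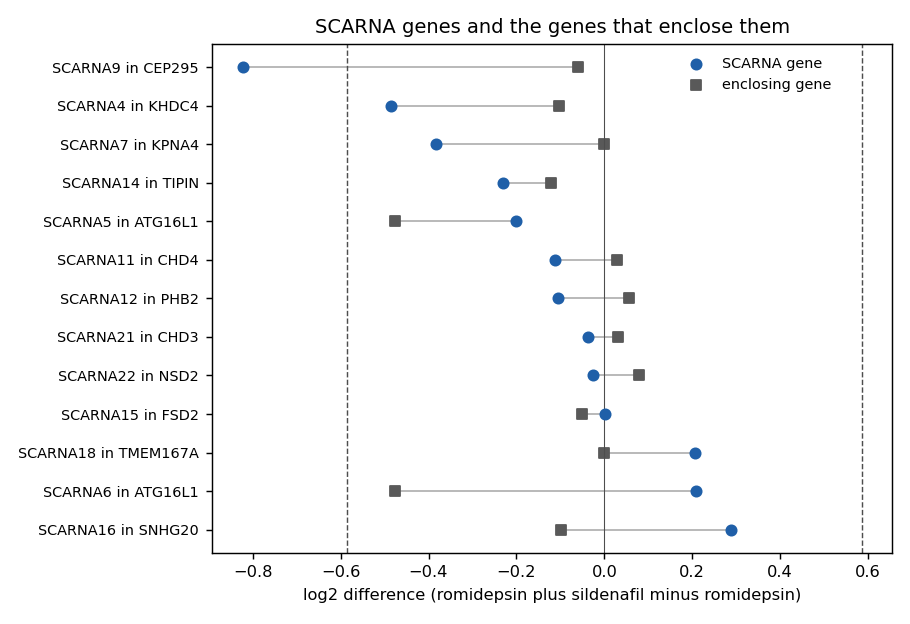
Log2 difference (romidepsin plus sildenafil minus romidepsin) of 13 scaRNA genes (circles) and of the RefSeq gene enclosing each (squares), 1 row per pair, with dashed lines at 1.5-fold. SCARNA9 at -0.82 is farthest from its enclosing gene, CEP295 at -0.06, and ATG16L1 at -0.48 lies below both scaRNAs within it.

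Start sites of the genes around the 4 scaRNAs that were at least 1.5-fold lower, and of ATG16L1, are shown because scaRNAs in introns are usually transcribed with the gene around them. Whether this holds for these 4 was not checked, since the strand was not known. Each sequence is from RefSeq (GRCh38.p14), reads 5′ to 3′ on the strand of the enclosing gene, and holds 80 bases before the annotated start in lower case and the first 20 transcribed bases in capitals. PPP1R8 (around SCARNA1) is at chr1:27830702-27830801 on the plus strand, CEP295 (SCARNA9) at chr11:93661602-93661701 on the plus strand, EIF1AX (SCARNA9L) at chrX:20141819-20141918 on the minus strand, POLA1 (SCARNA23) at chrX:24693838-24693937 on the plus strand and ATG16L1 (SCARNA5 and SCARNA6) at chr2:233251593-233251692 on the plus strand.
PPP1R8: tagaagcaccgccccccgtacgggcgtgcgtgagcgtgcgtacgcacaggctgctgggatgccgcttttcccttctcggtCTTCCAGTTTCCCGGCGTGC
CEP295: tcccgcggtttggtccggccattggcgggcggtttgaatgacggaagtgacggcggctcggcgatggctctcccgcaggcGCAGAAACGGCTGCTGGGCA
EIF1AX: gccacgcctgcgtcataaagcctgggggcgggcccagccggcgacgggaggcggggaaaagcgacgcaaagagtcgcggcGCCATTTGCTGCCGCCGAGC
POLA1: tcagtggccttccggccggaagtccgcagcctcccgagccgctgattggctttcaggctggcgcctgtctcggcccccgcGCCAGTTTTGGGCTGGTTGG
ATG16L1: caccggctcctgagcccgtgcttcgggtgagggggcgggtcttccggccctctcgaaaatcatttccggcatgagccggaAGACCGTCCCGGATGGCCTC

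Many genes that carry small RNAs in their introns begin transcripts with a run of pyrimidines. Of these 5 start sites PPP1R8 opened with a run of 5 pyrimidines and the other start sites with none, and 5.17% of 35116 RefSeq start sites opened with 5 or more. In the full windows of 250 bases before to 50 after the start, searched on both strands, the motif GGGCGG was present in all 5 (45.0% of all windows), CCAAT in CEP295 and POLA1 (34.6%) and TATAAA in none of the 5 (11.5%). RefSeq had 28 windows for 24 of the 25 genes that enclose the 22 scaRNAs. Among them 10.7% opened with 5 or more pyrimidines, GGGCGG was present in 89.3%, CCAAT in 39.3% and TATAAA in 3.57%. These matches describe the letters of the windows only.

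The vault RNAs included both the lowest and the highest difference of all 38 members. VTRNA1-1, which in human cells has been linked to the autophagy receptor p62, had a signal of 4.99 with sildenafil and 6.15 without. The difference of -1.16 (2.23-fold lower) was the 7th lowest of 14884 named genes and the lowest of 1489 in its decile of signal, in which 0.94% of the genes were at least 1.5-fold lower. VTRNA1-2 was at 3.07 with sildenafil and 3.49 without (-0.42). VTRNA1-3 was at 3.79 with sildenafil and 3.14 without, a difference of 0.65 (1.57-fold higher) in a decile where 3.02% of the genes were at least 1.5-fold higher. VTRNA2-1, a vault RNA paralogue also called nc886 that binds the kinase PKR, was at 1.57 with sildenafil and 1.73 without (-0.16). VTRNA1-1 was the only one of the 4 whose signals lay above the table median. The others were below it on both arrays. The 3 VTRNA1 genes lie together on chromosome 5, within the span of 1 long non-coding RNA gene that was not named, and they did not share a direction. MVP, the major vault protein and the only named gene of 3 vault protein genes, was at 5.54 with sildenafil and 5.56 without (-0.02).

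Most SNAR genes were close to equal on both arrays, with a median difference of -0.01 over 8 genes. None reached 1.5-fold, where 2.55% of all named genes did in either direction, but with only 8 genes a count of 0 is near that share. Of the 8 genes 5 were lower and 3 higher. The sign of this median turned under other normalizations (0.03 with quantile normalization or lowess centring) and with every probe set counted singly (0.02). SNAR-B1 was at 12.14 with sildenafil and 12.04 without, SNAR-C1 at 11.97 with and 11.95 without, and SNAR-H at 10.19 on both. Those 3 signals differed by at most 0.10. SNAR-G2 (9.74 with sildenafil and 9.77 without), SNAR-G1 and SNAR-I lay between -0.05 and 0.02. SNAR-D (9.53 with sildenafil and 9.91 without) was at -0.38 and SNAR-F (7.31 with and 7.59 without) at -0.29. Within their deciles of signal SNAR-D was the 17th lowest of 1489 genes and SNAR-F the 71st lowest of 1488.

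Several SNAR probe sets repeated the same values. SNAR-C1 had 5 probe sets, of which 3 had identical values on both arrays (9.97 with sildenafil and 9.90 without) and the other two also matched each other (11.97 with and 11.95 without). SNAR-B1 had 3 probe sets, 2 of them identical (12.05 with sildenafil and 11.98 without), and the values of the third recurred in 2 probe sets without a gene name. The 8 probe sets of both genes thus gave 4 distinct pairs of values, with differences between 0.01 and 0.10. All other members had 1 probe set each. RefSeq lists 28 SNAR genes in near-identical copies, and 8 of them were named here. A SNAR signal may therefore include RNA from copies that were not named.

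RMRP and TERC were slightly lower, RPPH1 was nearly equal, and none of these 3 reached 1.5-fold. RMRP was at 11.84 with sildenafil and 11.99 without (-0.16), RPPH1 at 6.36 with and 6.40 without (-0.04, and 0.00 with quantile normalization) and TERC at 8.65 with and 8.86 without (-0.21). TERC carries an H/ACA domain and is itself found in Cajal bodies. Its difference lay near the median of the scaRNAs (-0.19), but so did that of RMRP, and the scaRNAs ranged between -1.13 and 0.29.

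Genes for the proteins that bind or make these RNAs showed no 1.5-fold difference. Of 101 genes on 9 lists 61 were named, 34 of them were lower and 27 higher, and the median difference was -0.02. None was at least 1.5-fold apart, where 2.55% of all named genes were. The 61 genes were brighter, with a median signal of 6.93 with sildenafil, against 4.72 for all named genes. Differences spread less among bright genes (SD 0.15 in decile 9 of mean signal, 0.24 across all named genes). The share of all named genes is therefore not a matched background, and a count of 0 among 61 genes does not set the partners apart. Among 17 genes for Cajal body and SMN complex proteins (median -0.05), COIL, the coilin scaffold of the Cajal body, was at 5.87 with sildenafil and 6.23 without (-0.36). The SMN complex genes GEMIN8 and GEMIN7 were at -0.32 and 0.36, and ICE1, which takes part in the transcription of small nuclear RNA genes, was at -0.23.

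Of the proteins that form or assemble H/ACA particles, NHP2 was at -0.28, NOP10 at -0.25, NAF1 at -0.08 and the assembly factor SHQ1 at 0.21, with a median of -0.08 over 5 genes. Among 8 genes of C/D particles (median -0.02), the assembly factor NUFIP1 was at -0.36, the core protein SNU13 at 0.23, the ATPase RUVBL1 at 0.18 and RPAP3 at -0.14. The 9 RNA polymerase III genes had a median of -0.02. Their largest differences were POLR3GL at -0.34, POLR3G at -0.19, the repressor MAF1 at -0.15 and POLR3C at -0.13. The genes of these 3 lists ranged between -0.36 and 0.23, and the scaRNAs between -1.13 and 0.29.

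The remaining lists were also near 0. The 7 RNase P and MRP proteins had a median of 0.01, with RPP21 at -0.14, RPP38 at 0.13, RPP25L at -0.09 and RPP30 at -0.08. The 6 telomerase and shelterin genes had a median of 0.01, with TERF1 at 0.09, POT1 at 0.08, TINF2 at -0.06 and ACD at 0.04. Of the binding proteins of snaR and vault RNAs, SSB, the La protein that holds the ends of new polymerase III transcripts, was at -0.17 and the splicing factor SRSF2 at 0.12. Genes for the complex of 7SK RNA with P-TEFb had a median of 0.05 over 6 genes, with the kinase CDK9 at 0.32, the capping enzyme MEPCE at 0.17, CCNT2 at -0.10 and HEXIM2 at 0.05.

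**Figure D4:**
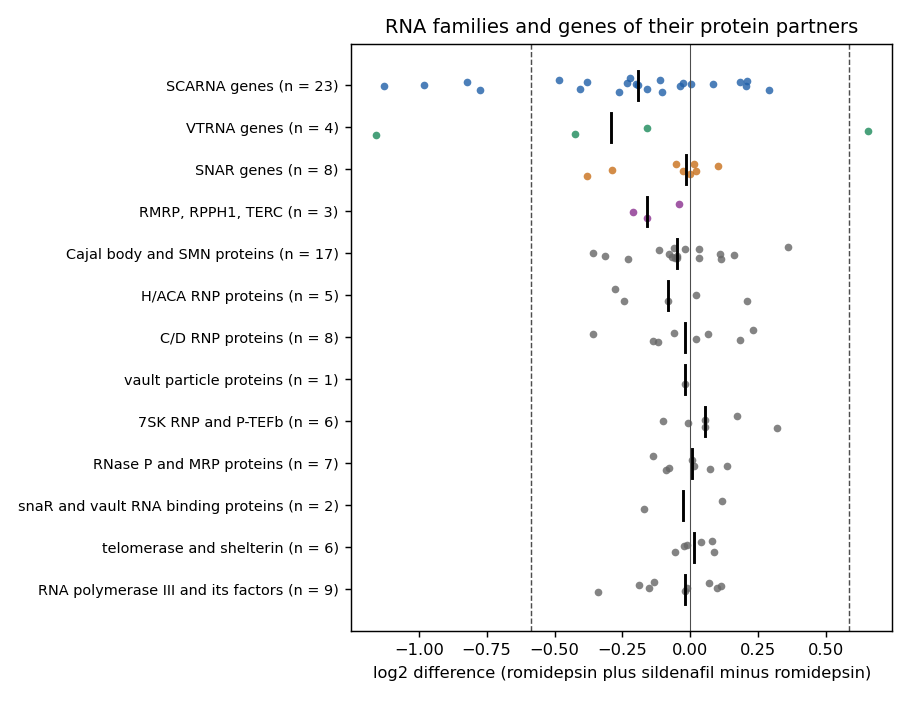
Log2 difference (romidepsin plus sildenafil minus romidepsin) of each gene (points) in the RNA families (coloured) and in 9 lists of their protein partners (grey), with the median of each as a black bar and 1.5-fold as dashed lines. The SCARNA points reach -1.13 and the VTRNA points range between -1.16 and 0.65, whereas all protein partners lie between -0.36 and 0.36.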

How the data were processed

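Per the labels' protocols, total RNA was turned into sense cDNA by whole-transcript amplification, fragmented and biotin-labelled. A Qiagen extraction kit is named there without its type, and recovery of RNAs this short was not measured. The deposited values are log2 signals, 1 column per array, with the authors' summarisation and normalization not given in the sources used here. Log base 2 was inferred from the range: a 16-bit scanner's ceiling is 11.1 as a natural log and 16 as a log2, and the highest signal was 13.05. The sorted columns differed by at most 0.15. If the arrays were normalized to each other, a change common to most transcripts would have been removed.

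Gene names came from GEO's platform annotation, in which 16098 probe sets had 1 symbol, 0 had several and 37519 had none. All 38 members matched RefSeq by Entrez identifier. The probe set with the highest mean signal stood for a gene, without a signal filter. Deciles are of mean signal over 14884 named genes. Named were members and up to 4 genes of each partner list with the largest absolute difference. Members and lists were chosen with earlier results of these data known. The counting was tested on simulated data with 200 genes changed 2-fold and the same noise for all genes. In the data the SD of the differences ran from 0.12 in the brightest decile to 0.29 in the fourth. Calls near 1.5-fold among dim genes were therefore not tested by it. Alternatives changed normalization, probe set handling, signal filter, threshold and near-identical copies. Tools were numpy 2.4.6, scipy 1.17.1, pandas 2.3.3, statsmodels 0.14.6 and matplotlib 3.10.9 under Python 3.11.15. The number of arrays limits the precision.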

Additional observations from a re-analysis of the deposited data

How the results depend on the processing

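No paired analysis was possible because each group holds 1 array, and for the same reason no array could be left out. Of 77 values under the alternatives, 68 kept their sign and moved by at most 0.1 (log2), or by at most 1.5 times for counts. Some of the 68 could not move, since all SCARNA and VTRNA genes have 1 probe set and probe set handling left them unchanged. The median of the SNAR genes, -0.01, was 0.0346 with quantile normalization, 0.0295 with lowess centring and 0.0178 with every probe set counted singly. The cause was not tested. With every probe set counted singly, the median of all members was -0.08 in place of -0.16. With a signal filter at the table median, on the brighter array or on the mean, only VTRNA1-1 remained of the vault RNAs (median -1.16), and the members at least 1.5-fold higher numbered 0. Those at least 1.5-fold lower numbered 4 in place of 5 with the filter on the mean, which removed SCARNA23, and 4 with near-identical copies, SCARNA9L among them, left out. At a 2-fold threshold 2 members were lower and 0 higher. The 6 members past 1.5-fold stayed past it under all normalizations, with VTRNA1-1 between -1.19 and -1.13, SCARNA9 between -0.85 and -0.77 and VTRNA1-3 between 0.60 and 0.65. Each of them has 1 probe set, so the handling of probe sets could not change them. The signals of dim members are limited by an unknown background.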
